A study of Mus musculus with 24 samples.

Results

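Transcripts of 36 genes for fatty acid uptake, storage and oxidation were followed across 6 groups of mouse hearts. The genes were taken from a list of enzymes, carriers and electron transfer proteins, chosen with earlier results of these data known. Counts of them set beside shares of all genes are therefore a description and not a test. Each gene was read by the brightest probe set over the 24 arrays that names this gene alone. Such a probe set was found for 35 of the 36, out of 14763 genes tested in all. *Acsl1*, which encodes the acyl-CoA synthetase that activates long-chain fatty acids in the heart, has no probe set that names it alone and was not measured. Fatty acids released from circulating triglyceride enter the cardiomyocyte, are bound to coenzyme A, cross the inner mitochondrial membrane as carnitine esters and are shortened by the beta-oxidation spiral. Electrons from the spiral pass through the electron transfer flavoprotein to the respiratory chain, and auxiliary enzymes prepare unsaturated chains for it. The healthy adult heart draws most of its energy from this route, and lower expression of its genes is a known feature of failing hearts.

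The animals were FVB/N mice on a chow diet, either nontransgenic (Ntg), carrying a dominant negative PI3K transgene expressed in the heart (dnPI3K, reduced PI3K activity) or carrying a constitutively active PI3K transgene expressed in the heart (caPI3K, increased PI3K activity). PI3K, phosphoinositide 3-kinase, is a lipid kinase downstream of insulin and growth factor receptors. At 4 months of age the mice had a myocardial infarction (MI) or sham surgery, and hearts were taken 8 weeks later, which gave 4 arrays in each of Ntg sham, Ntg MI, dnPI3K sham, dnPI3K MI, caPI3K sham and caPI3K MI. The series asks how MI changes expression in each genotype and whether that change differs between genotypes. The 95% confidence intervals given below come from the same fit. The labels call the transgenes cardiac and name no promoter. One tag on the caPI3K MI samples carries the name of the sham group, while their titles and descriptions give MI, and they were used as MI. Hearts were homogenized individually, but the labels do not tie arrays to animals. The p-values therefore rest on the scatter of the arrays within a group, part of which may be technical.

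Median signal was 102.86 to 118.54 on 23 arrays and 150.66 on dnPI3K MI replicate 1. The bright end of the scale moved with group: the 99th percentile of signal was 17274 to 20301 in Ntg sham, 18260 to 20892 in dnPI3K sham and 16141 to 17234 in dnPI3K MI hearts. *Lpl*, *Cd36*, *Fabp3*, *Acadl*, *Acadm* and *Hadhb* lay above the 99th percentile on all 24 arrays. Quantile-normalized values are therefore given for some genes where a call or a sign changed. The Y-linked gene *Eif2s3y* read 10.55 to 10.99 on caPI3K sham replicates 1 to 3 and 3.71 to 5.72 on the other 21 arrays. *Xist*, on the X chromosome, read 6.77 to 7.08 on these 3 arrays and 12.65 to 13.61 on the other 21. In comparisons with caPI3K sham hearts, a difference of sex therefore cannot be told apart from one of genotype or operation. Some results for caPI3K sham hearts are also given without these 3 arrays, which leaves 1 in the group. All 8 cardiomyocyte markers examined, such as *Myh6* and *Tnnt2*, were above the 40th percentile of signal on all 24 arrays. Levels below are log2(signal + 11.2) and changes are differences of these, with standard errors (SE) from limma and p-values adjusted over the 14763 genes by the Benjamini-Hochberg method. A gene is called at an adjusted p below 0.05.

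MI lowered many of these genes in dnPI3K hearts, few in Ntg hearts and none past the threshold in caPI3K hearts. In dnPI3K hearts 21 of 35 fell and 0 rose, where 5.19% of all genes tested fell. The median change of the 35 was -0.442, beside 0.011 over all genes. In Ntg hearts 2 of 35 fell, *Ech1* and *Decr1*, where 0.0948% of all genes fell, and the median was -0.297 beside -0.005. In caPI3K hearts 0 of 35 passed, where 1.11% of all genes were called in either direction. The caPI3K median was -0.304 beside -0.002, and 22 members had an unadjusted p below 0.05 in limma, all of them lower. Signs were nearly uniform, with 33, 34 and 34 of 35 members below 0 in Ntg, dnPI3K and caPI3K hearts, beside 50.8%, 48.6% and 50.4% of all genes. After quantile normalization *Fabp3* stood at 0.002 in Ntg and 0.030 in dnPI3K hearts and *Cd36* at 0.004 in dnPI3K hearts. The median over members kept its sign in each genotype. The part of the scaling of bright probe sets in these falls was not tested. In whole-heart RNA, fewer cells of a type and less RNA per cell cannot be told apart.

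**Figure D1:**
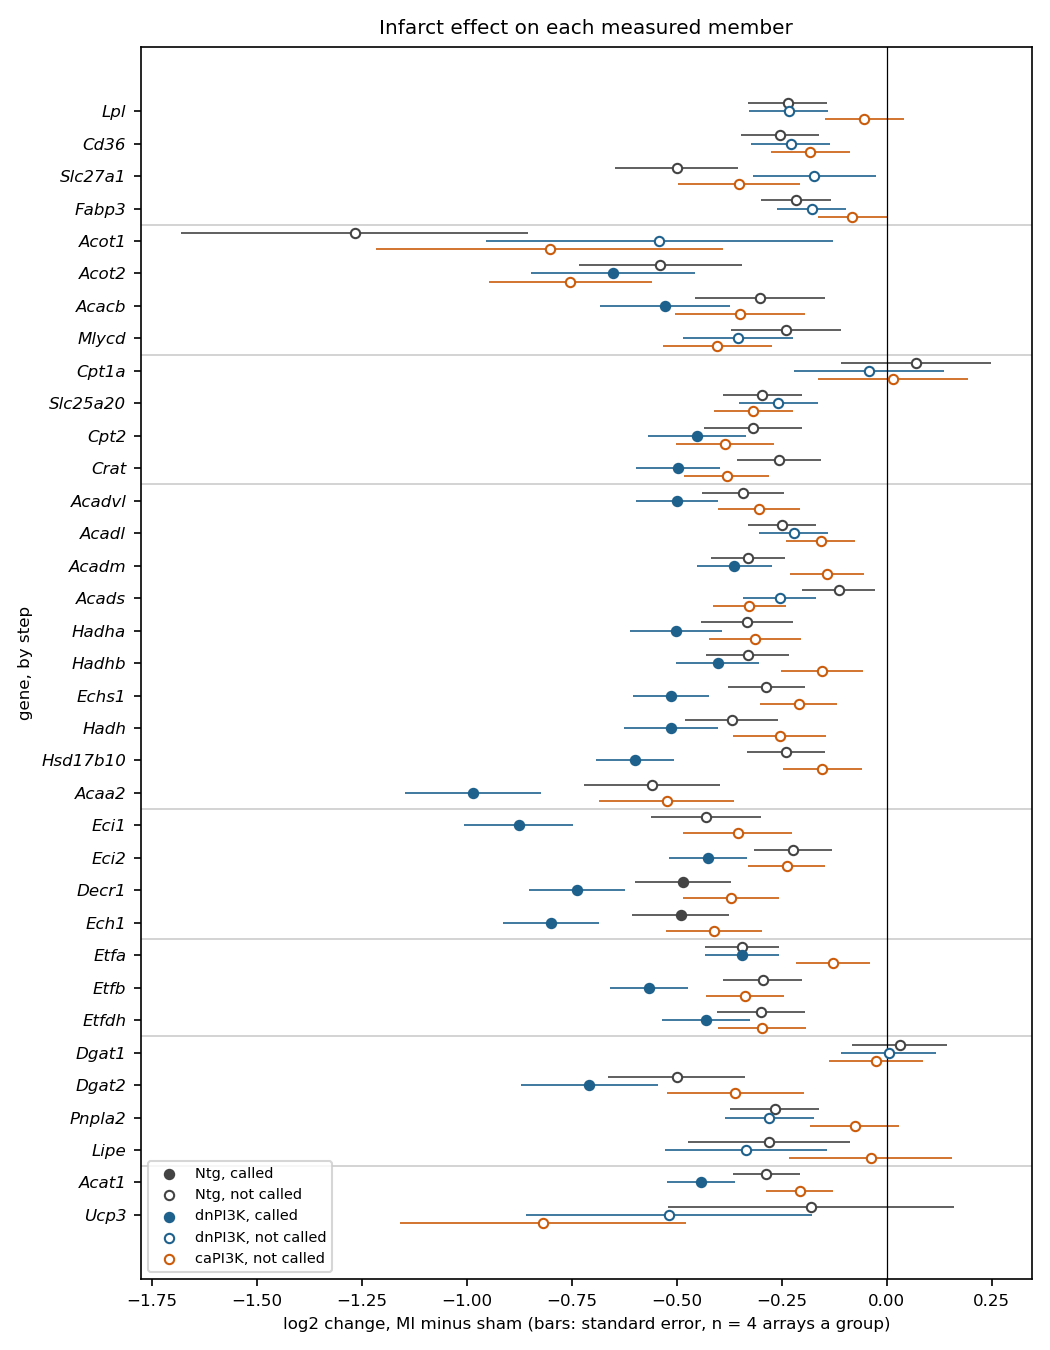
Log2 change after MI (MI minus sham, horizontal axis) of the 35 measured genes, ordered by step from uptake (top) to *Ucp3*, in Ntg, dnPI3K and caPI3K hearts, with standard errors as bars and 4 arrays a group. Filled points passed an adjusted p of 0.05, which 21 dnPI3K points, 2 Ntg points and 0 caPI3K points did.

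The Ntg count rested on single arrays. Without Ntg sham replicate 4 it was 19, and without any other Ntg array it was 0. That array had a median of 0.296 for fibroblast markers relative to the mean of all arrays, where the other Ntg sham arrays lay between -0.669 and -0.508. The caPI3K count was 14 in a fit on the caPI3K arrays alone, against 0 when the spread was estimated over all 6 groups. Genes called in that separate fit include *Ech1* (adjusted p = 0.0025), *Cpt2* (0.00564), *Decr1* (0.0107), *Eci1* (0.0145) and *Hadha* (0.0288), all lower after MI. For these and the other alternative fits the share of all genes called is not given. Whether a count moved more than that share is therefore not shown. Of the 21 dnPI3K calls 6 were lost with the mean over a gene's probe sets, those of *Acot2*, *Cpt2*, *Crat*, *Hadhb*, *Hadh* and *Etfdh*. A fit of the dnPI3K arrays alone ended those of *Acot2* and *Cpt2* (adjusted p = 0.0663 and 0.0506), and a fit without the intensity trend those of *Acot2* and *Acacb* (0.0789 and 0.0686). The number that ends each title is called the array number here. The labels do not say whether it counts arrays, animals or something else. Array numbers 415 to 418 are replicates 1 and 2 of Ntg sham and of dnPI3K sham. A fit with these 4 left out ended the dnPI3K calls of *Acot2*, *Acacb*, *Hadhb* and *Etfdh* (adjusted p = 0.0679 to 0.124). Sham and MI arrays did not overlap, with MI lower, for 7 members in Ntg, 20 in dnPI3K and 20 in caPI3K hearts, beside 2.5%, 7.1% and 4.29% of all genes.

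None of the 4 uptake genes passed in the fit used here. *Lpl* passed after MI in dnPI3K hearts with a term that separates array numbers below 1000 from the rest (-0.281, adjusted p = 0.0144) and with the mean of its probe sets (-0.315, adjusted p = 0.0267). *Cd36* passed there without dnPI3K sham replicate 3 (-0.32, adjusted p = 0.0271). *Lpl* (probe set 1415904_at) encodes lipoprotein lipase, which frees fatty acids at the vessel wall. *Lpl* log2 levels on sham arrays were 15.94, 15.85, 15.46 and 15.72 in Ntg, 15.96, 15.76, 15.57 and 15.72 in dnPI3K and 15.60, 15.54, 15.56 and 15.55 in caPI3K hearts. *Lpl* log2 levels after MI were 15.45, 15.55, 15.56 and 15.48 in Ntg, 15.53, 15.42, 15.61 and 15.51 in dnPI3K and 15.55, 15.61, 15.26 and 15.60 in caPI3K hearts. Sham and MI arrays overlapped in each genotype, in Ntg hearts because sham replicate 3 was low, and caPI3K MI replicate 3 was the lowest of all. Its changes after MI were -0.24 (SE 0.09, adjusted p = 0.274) in Ntg, -0.23 (SE 0.09, adjusted p = 0.128) in dnPI3K and -0.05 (SE 0.09, adjusted p = 0.896) in caPI3K hearts.

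*Cd36* (1450883_a_at) is the membrane fatty acid translocase. *Cd36* log2 levels on sham arrays were 14.99, 14.96, 14.76 and 14.80 in Ntg, 14.75, 14.85, 14.45 and 14.85 in dnPI3K and 14.89, 14.90, 14.87 and 14.84 in caPI3K hearts. *Cd36* log2 levels after MI were 14.41, 14.75, 14.59 and 14.74 in Ntg, 14.35, 14.56, 14.69 and 14.38 in dnPI3K and 14.73, 14.69, 14.55 and 14.81 in caPI3K hearts. All MI arrays lay below all sham arrays in Ntg and in caPI3K hearts, while dnPI3K sham replicate 3 lay among the dnPI3K MI arrays. *Cd36* changed by -0.25 (SE 0.09, adjusted p = 0.238) in Ntg, -0.23 (SE 0.09, adjusted p = 0.137) in dnPI3K and -0.18 (SE 0.09, adjusted p = 0.449) in caPI3K hearts, none past the threshold. After quantile normalization the dnPI3K value of this probe set was 0.004. The other kept probe sets of *Cd36*, of mean signal 22396 and 6322.3, changed by -0.37 and -0.44 in dnPI3K hearts. In the same order they differed by -0.25 and -0.45 between dnPI3K and Ntg MI hearts. Between caPI3K and dnPI3K MI hearts they differed by 0.32 and 0.47. No test or quantile-normalized value of these probe sets alone is given.

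*Fabp3* (1416023_at), the cytosolic fatty acid binding protein of heart muscle, passes fatty acids on from the membrane. *Fabp3* log2 levels on sham arrays were 16.06, 16.07, 15.78 and 15.88 in Ntg, 15.93, 15.62, 15.60 and 15.78 in dnPI3K and 15.87, 15.87, 15.83 and 15.81 in caPI3K hearts. *Fabp3* log2 levels after MI were 15.60, 15.76, 15.78 and 15.79 in Ntg, 15.52, 15.52, 15.67 and 15.48 in dnPI3K and 15.80, 15.84, 15.60 and 15.81 in caPI3K hearts. Sham and MI arrays overlapped in all 3 genotypes. *Fabp3* changed by -0.22 (SE 0.08, adjusted p = 0.255), -0.18 (SE 0.08, adjusted p = 0.199) and -0.08 (SE 0.08, adjusted p = 0.777) in Ntg, dnPI3K and caPI3K hearts, and quantile normalization turned the Ntg and dnPI3K values to 0.002 and 0.030. *Slc27a1*, a fatty acid transport protein, changed by -0.50 (SE 0.15, adjusted p = 0.111) in Ntg hearts with no overlap between sham and MI arrays, and by -0.17 (SE 0.15, adjusted p = 0.543) and -0.35 (SE 0.15, adjusted p = 0.296) in dnPI3K and caPI3K hearts.

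Of the genes for thioesterases and malonyl-CoA, *Acacb* and *Acot2* fell in dnPI3K hearts. *Acacb* (1427052_at) makes the malonyl-CoA that inhibits carnitine palmitoyltransferase. *Acacb* log2 levels on sham arrays were 11.25, 10.91, 10.99 and 10.44 in Ntg, 11.04, 10.76, 10.68 and 11.16 in dnPI3K and 10.72, 10.84, 10.54 and 10.62 in caPI3K hearts. *Acacb* log2 levels after MI were 10.13, 10.62, 10.99 and 10.63 in Ntg, 10.37, 10.35, 10.58 and 10.23 in dnPI3K and 10.07, 10.39, 10.54 and 10.31 in caPI3K hearts. Every MI array lay below every sham array in dnPI3K and, narrowly, in caPI3K hearts, while Ntg groups overlapped with sham replicate 4 low. *Acacb* fell by 0.53 (SE 0.16, adjusted p = 0.0293) log2 units in dnPI3K hearts, beside -0.30 (SE 0.16, adjusted p = 0.446) in Ntg and -0.35 (SE 0.16, adjusted p = 0.35) in caPI3K hearts. Its call was lost without any of dnPI3K sham replicates 1 and 4 and MI replicates 1, 2 and 4 (adjusted p up to 0.111).

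*Acot2*, the mitochondrial acyl-CoA thioesterase, fell by 0.65 (SE 0.19, adjusted p = 0.0317) log2 units in dnPI3K hearts, lost without any of dnPI3K sham replicates 1 and 4 and MI replicates 1 and 4 (adjusted p up to 0.15). In caPI3K hearts the change was -0.75 (SE 0.19, adjusted p = 0.0528), which missed the threshold narrowly, with no overlap of sham and MI arrays, and in Ntg hearts it was -0.54 (SE 0.19, adjusted p = 0.225). *Mlycd*, malonyl-CoA decarboxylase, changed by -0.24, -0.35 and -0.40 in Ntg, dnPI3K and caPI3K hearts (adjusted p = 0.481, 0.0915 and 0.145). *Acot1*, the cytosolic thioesterase, was dim and variable, from 6.12 to 8.77 over the arrays, and no change of it passed.

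Of the carnitine shuttle genes, *Slc25a20* and *Cpt2* differed between genotypes already in sham hearts. *Slc25a20* (1423108_at) is the carnitine-acylcarnitine translocase of the inner mitochondrial membrane. *Slc25a20* log2 levels on sham arrays were 12.55, 12.65, 12.66 and 12.71 in Ntg, 12.14, 11.96, 12.05 and 12.48 in dnPI3K and 12.88, 12.85, 12.74 and 12.85 in caPI3K hearts. *Slc25a20* log2 levels after MI were 12.19, 12.35, 12.28 and 12.57 in Ntg, 11.71, 11.95, 12.12 and 11.82 in dnPI3K and 12.53, 12.53, 12.50 and 12.49 in caPI3K hearts. Sham arrays of the 3 genotypes did not overlap, in the order dnPI3K, Ntg, caPI3K, and every dnPI3K MI array lay below every MI array of the other genotypes. *Slc25a20* was lower in dnPI3K than in Ntg sham hearts by a log2 difference of -0.49 (SE 0.09, adjusted p = 0.00544), and higher in caPI3K than in dnPI3K sham hearts by 0.67 (SE 0.09, adjusted p = 2.31e-05). After MI the same differences were -0.45 (SE 0.09, adjusted p = 0.00771) and 0.61 (SE 0.09, adjusted p = 0.000174), while caPI3K and Ntg hearts differed by 0.19 (SE 0.09, adjusted p = 0.472) in sham and 0.16 (SE 0.09, adjusted p = 0.999) after MI. These 4 calls were kept when any single array was left out. The dnPI3K minus Ntg difference in sham hearts was -0.422 (adjusted p = 0.315) without arrays 415 to 418 and had an adjusted p of 0.0624 in a fit of both groups alone, and that after MI one of 0.0524 in such a fit. The change after MI itself passed in no genotype: -0.30 (SE 0.09, adjusted p = 0.161) in Ntg, -0.26 (SE 0.09, adjusted p = 0.0901) in dnPI3K and -0.32 (SE 0.09, adjusted p = 0.104) in caPI3K hearts.

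*Cpt2* (1416772_at), the inner-membrane palmitoyltransferase that hands acyl groups back to coenzyme A, followed the same order. *Cpt2* log2 levels on sham arrays were 12.77, 12.92, 12.74 and 12.53 in Ntg, 12.29, 12.03, 12.04 and 12.67 in dnPI3K and 12.89, 12.83, 12.74 and 12.91 in caPI3K hearts. *Cpt2* log2 levels after MI were 12.17, 12.41, 12.65 and 12.46 in Ntg, 11.83, 11.96, 11.86 and 11.57 in dnPI3K and 12.31, 12.53, 12.49 and 12.49 in caPI3K hearts. dnPI3K MI arrays lay below all other MI arrays, and of the dnPI3K sham arrays only replicate 4 reached the Ntg sham range. *Cpt2* was lower in dnPI3K than in Ntg hearts by -0.48 (SE 0.12, adjusted p = 0.0348) in sham and -0.62 (SE 0.12, adjusted p = 0.00305) after MI, and higher in caPI3K than in dnPI3K hearts by 0.58 (SE 0.12, adjusted p = 0.00134) in sham and 0.65 (SE 0.12, adjusted p = 0.00104) after MI. MI lowered it in dnPI3K hearts, where it fell by 0.45 (SE 0.12, adjusted p = 0.0129), beside -0.32 (SE 0.12, adjusted p = 0.232) in Ntg and -0.39 (SE 0.12, adjusted p = 0.111) in caPI3K hearts. The difference between dnPI3K and Ntg sham hearts was lost without any of Ntg sham or dnPI3K sham replicates 1 to 3 (adjusted p up to 0.191), and the change after MI without dnPI3K sham or MI replicate 4 (up to 0.0745). A dim second probe set of *Cpt2* did not follow: averaging both gave a dnPI3K minus Ntg difference of -0.247 (adjusted p = 0.834) in sham and 0.044 after MI, a caPI3K minus dnPI3K difference of 0.463 (adjusted p = 0.389) and 0.052 (adjusted p = 0.959), and a change of -0.013 (adjusted p = 0.989) after MI in dnPI3K hearts. Without arrays 415 to 418 the dnPI3K minus Ntg sham difference was -0.28 (adjusted p = 0.755).

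*Crat*, carnitine acetyltransferase, fell by 0.50 (SE 0.10, adjusted p = 0.00189) log2 units after MI in dnPI3K hearts, beside -0.26 (SE 0.10, adjusted p = 0.267) in Ntg and -0.38 (SE 0.10, adjusted p = 0.0587) in caPI3K hearts, and was lower in dnPI3K MI than Ntg MI hearts by -0.39 (SE 0.10, adjusted p = 0.0319). That difference was lost without any of Ntg MI replicates 2, 3 and 4 and dnPI3K MI replicates 1 and 4 (adjusted p up to 0.129). With the mean over its probe sets, the second brightest of which has a mean signal of 1535, the change in dnPI3K hearts was -0.308 (adjusted p = 0.156) and the difference from Ntg MI hearts -0.243 (adjusted p = 0.404). *Cpt1a*, the outer-membrane enzyme in its liver form, stayed between 9.23 and 10.25 on all arrays and passed in no comparison. The muscle form *Cpt1b* has no probe set that names it alone and was not measured.

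**Figure D2:**
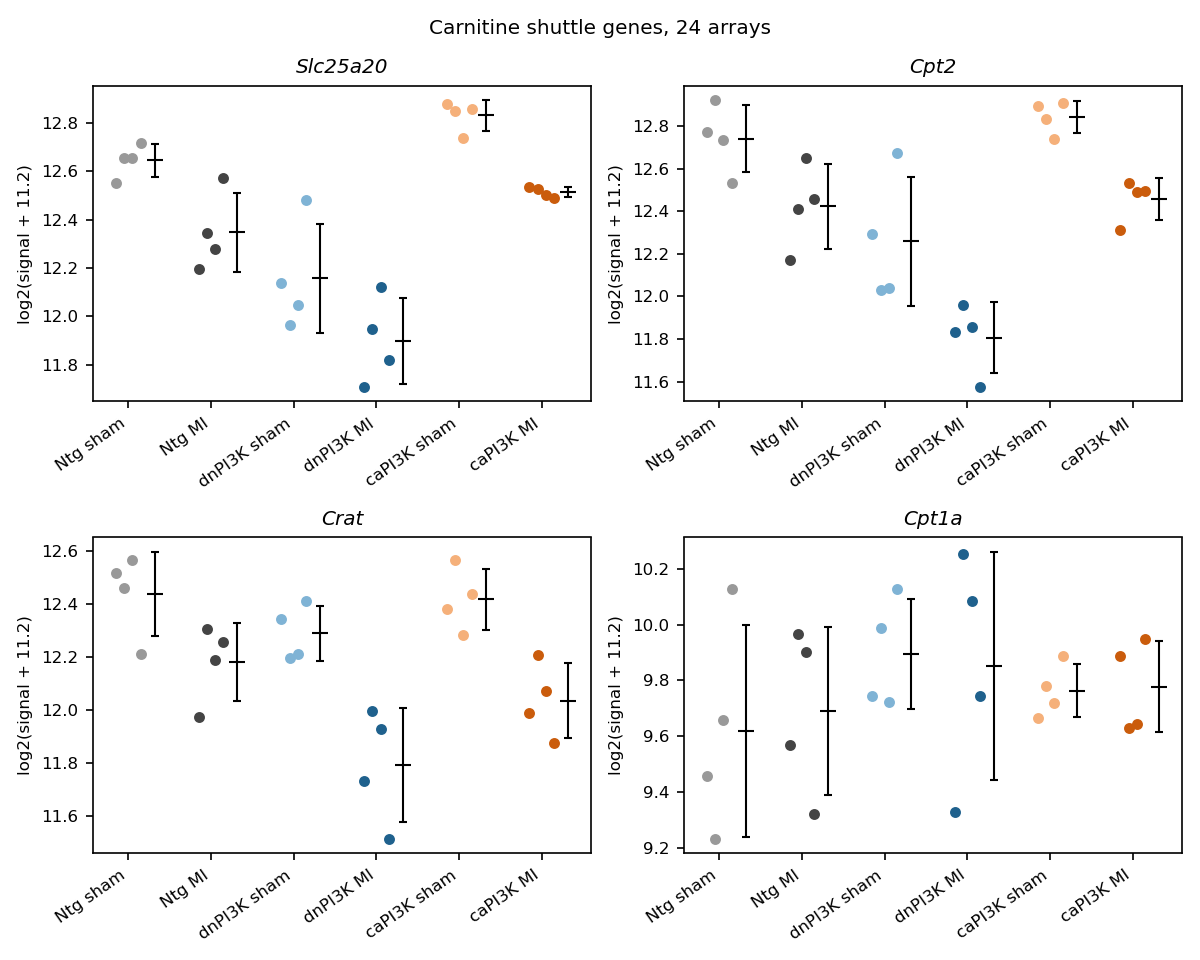
Log2(signal + 11.2) of *Slc25a20*, *Cpt2*, *Crat* and *Cpt1a* on each of 24 arrays (points), with group mean and SD (bars, n = 4). *Slc25a20* sham arrays of the 3 genotypes do not overlap, while *Cpt1a* groups overlap throughout.

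Promoter sequences of *Slc25a20* and *Cpt2*, which differed by genotype, are shown with that of *Ech1*, which had the smallest p after MI in dnPI3K hearts. Each is the 250 bases before the annotated start, from RefSeq on GRCm38.p6, 5′ to 3′ on the gene's strand, at chr9:108661886-108662135 (plus strand), chr4:107923590-107923839 (minus strand) and chr7:28825088-28825337 (plus strand). Capitals mark CCGGAAG on either strand, a core that ETS family factors are known to bind.
Slc25a20: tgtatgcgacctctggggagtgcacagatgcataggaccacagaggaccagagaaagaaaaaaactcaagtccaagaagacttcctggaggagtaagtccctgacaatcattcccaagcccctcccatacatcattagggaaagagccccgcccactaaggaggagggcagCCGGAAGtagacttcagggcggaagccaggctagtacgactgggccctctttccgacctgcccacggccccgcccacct
Cpt2: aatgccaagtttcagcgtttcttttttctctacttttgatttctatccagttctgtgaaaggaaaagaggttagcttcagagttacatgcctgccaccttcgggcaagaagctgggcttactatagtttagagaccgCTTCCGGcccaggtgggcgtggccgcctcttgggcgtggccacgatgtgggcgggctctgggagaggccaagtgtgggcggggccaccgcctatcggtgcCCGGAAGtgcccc
Ech1: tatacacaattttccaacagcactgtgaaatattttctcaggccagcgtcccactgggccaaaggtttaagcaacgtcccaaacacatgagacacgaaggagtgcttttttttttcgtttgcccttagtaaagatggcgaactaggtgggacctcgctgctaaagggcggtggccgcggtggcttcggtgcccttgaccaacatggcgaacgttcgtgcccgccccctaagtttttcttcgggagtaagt
Motifs were searched by exact match on both strands in windows of 300 bases, 250 before and 50 after the start. Windows were matched by symbol for 29 of the 36 genes, all but *Acat1*, *Lpl*, *Crat*, *Acaa2*, *Dgat2*, *Dgat1* and *Decr1*. CCGGAAG was found for 4 of 29, *Slc25a20*, *Cpt2*, *Lipe* and *Mlycd*, beside 12.9% of 17492 protein-coding genes. The estrogen-related receptor site TCAAGGTCA and the direct repeat bound by PPAR with RXR were each found for 0 of 29, beside 0.377% and 0.0572% of genes. The shorter AAGGTCA, which lies within that receptor site, was found for *Acacb* and *Acadm*, beside 4.73%, and the GC box GGGCGG for 21 of 29, beside 49.2%. These last motifs and the ETS core were searched after the sequences had been seen. A match is a run of letters and not a measured site.

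In the beta-oxidation spiral 8 of 10 genes fell after MI in dnPI3K hearts, and 0 of 10 passed in Ntg and in caPI3K hearts. *Acaa2* (1455061_a_at), the ketoacyl-CoA thiolase that closes each turn, had the largest change. *Acaa2* log2 levels on sham arrays were 13.84, 13.61, 13.73 and 12.98 in Ntg, 13.34, 13.17, 12.89 and 13.62 in dnPI3K and 13.68, 13.57, 13.41 and 13.71 in caPI3K hearts. *Acaa2* log2 levels after MI were 12.76, 13.04, 13.08 and 13.03 in Ntg, 12.44, 12.46, 12.46 and 11.73 in dnPI3K and 13.02, 13.19, 13.08 and 12.98 in caPI3K hearts. dnPI3K MI arrays were the lowest of all 24, with replicate 4 lowest, and Ntg sham replicate 4 lay among the Ntg MI arrays. *Acaa2* fell by 0.99 (SE 0.16, adjusted p = 0.000313) log2 units in dnPI3K hearts, a signal that fell by 49.5%, beside -0.56 (SE 0.16, adjusted p = 0.109) in Ntg and -0.52 (SE 0.16, adjusted p = 0.119) in caPI3K hearts. It was lower in dnPI3K MI than Ntg MI hearts by -0.71 (SE 0.16, adjusted p = 0.0127), which was lost without Ntg MI replicate 3 or dnPI3K MI replicate 4 (adjusted p up to 0.0612), and higher in caPI3K MI than dnPI3K MI hearts by 0.80 (SE 0.16, adjusted p = 0.00325).

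*Acadm* (1415984_at) is the medium-chain acyl-CoA dehydrogenase. *Acadm* log2 levels on sham arrays were 15.49, 15.44, 15.12 and 15.04 in Ntg, 15.24, 15.04, 14.94 and 15.10 in dnPI3K and 15.21, 15.20, 15.15 and 15.16 in caPI3K hearts. *Acadm* log2 levels after MI were 14.81, 14.97, 14.98 and 15.00 in Ntg, 14.62, 14.74, 14.84 and 14.67 in dnPI3K and 15.10, 15.12, 14.90 and 15.03 in caPI3K hearts. In each genotype the MI arrays lay below the sham arrays, narrowly in caPI3K hearts. *Acadm* fell by 0.36 (SE 0.09, adjusted p = 0.00903) log2 units in dnPI3K hearts, beside -0.33 (SE 0.09, adjusted p = 0.0805) in Ntg and -0.14 (SE 0.09, adjusted p = 0.571) in caPI3K hearts. After quantile normalization the dnPI3K change was -0.11 (adjusted p = 0.221), and without Ntg sham replicate 4 the Ntg change was -0.41 (adjusted p = 0.00489). *Acadm* was higher in caPI3K MI than dnPI3K MI hearts by 0.32 (SE 0.09, adjusted p = 0.0361), lost without any of dnPI3K MI replicates 1, 2 and 4 and caPI3K MI replicates 1, 2 and 4 (adjusted p up to 0.117).

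*Hadha* (1452173_at) encodes the alpha subunit of the trifunctional protein, which handles long chains. *Hadha* log2 levels on sham arrays were 14.16, 14.11, 13.80 and 13.74 in Ntg, 13.82, 13.53, 13.41 and 13.88 in dnPI3K and 13.87, 13.88, 13.69 and 13.81 in caPI3K hearts. *Hadha* log2 levels after MI were 13.41, 13.69, 13.76 and 13.62 in Ntg, 13.17, 13.28, 13.27 and 12.91 in dnPI3K and 13.33, 13.60, 13.48 and 13.59 in caPI3K hearts. The dnPI3K MI arrays lay below every other array of the 24, and only in Ntg hearts did sham and MI overlap. *Hadha* fell by 0.50 (SE 0.11, adjusted p = 0.00373) log2 units in dnPI3K hearts, beside -0.33 (SE 0.11, adjusted p = 0.181) in Ntg and -0.31 (SE 0.11, adjusted p = 0.183) in caPI3K hearts. Its dnPI3K minus Ntg difference after MI was -0.46 (SE 0.11, adjusted p = 0.0183), lost without any of Ntg MI replicates 2, 3 and 4 and dnPI3K MI replicate 4 (adjusted p up to 0.086), and its caPI3K minus dnPI3K difference was 0.34 (SE 0.11, adjusted p = 0.0838). *Hadhb*, the beta subunit, fell by 0.40 (SE 0.10, adjusted p = 0.00902) in dnPI3K hearts, which quantile normalization reduced to -0.15 (adjusted p = 0.233) and the mean of its probe sets to -0.363 (adjusted p = 0.0716).

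*Hsd17b10* (1448286_at), a mitochondrial hydroxyacyl-CoA dehydrogenase of short and branched chains, had another order of groups. *Hsd17b10* log2 levels on sham arrays were 13.05, 13.10, 13.03 and 12.66 in Ntg, 13.26, 13.02, 13.20 and 13.00 in dnPI3K and 12.62, 12.71, 12.55 and 12.74 in caPI3K hearts. *Hsd17b10* log2 levels after MI were 12.55, 12.79, 12.86 and 12.67 in Ntg, 12.62, 12.48, 12.60 and 12.39 in dnPI3K and 12.49, 12.61, 12.59 and 12.32 in caPI3K hearts. dnPI3K sham arrays were high and caPI3K sham arrays low, without overlap, while the MI arrays of these genotypes overlapped. *Hsd17b10* fell by 0.60 (SE 0.09, adjusted p = 0.000221) log2 units after MI in dnPI3K hearts, beside -0.24 (SE 0.09, adjusted p = 0.264) in Ntg and -0.15 (SE 0.09, adjusted p = 0.557) in caPI3K hearts. It was lower in caPI3K than in dnPI3K sham hearts by -0.46 (SE 0.09, adjusted p = 0.00141), and after MI the difference was -0.02 (SE 0.09, adjusted p = 0.952). Without the 3 caPI3K sham arrays with Y-linked signal the sham difference was -0.38 (adjusted p = 0.28).

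*Acads* (1460216_at), the short-chain acyl-CoA dehydrogenase, resembled the carnitine shuttle genes. *Acads* log2 levels on sham arrays were 11.80, 11.68, 11.70 and 11.81 in Ntg, 11.58, 11.33, 11.36 and 11.55 in dnPI3K and 11.80, 12.03, 11.89 and 11.90 in caPI3K hearts. *Acads* log2 levels after MI were 11.41, 11.81, 11.64 and 11.66 in Ntg, 11.25, 11.30, 11.25 and 11.00 in dnPI3K and 11.47, 11.70, 11.67 and 11.48 in caPI3K hearts. dnPI3K arrays lay below the arrays of both other genotypes within sham and within MI, with no overlap. *Acads* was higher in caPI3K than in dnPI3K hearts by 0.45 (SE 0.09, adjusted p = 0.000966) in sham and 0.38 (SE 0.09, adjusted p = 0.0101) after MI, and lower in dnPI3K than in Ntg MI hearts by -0.43 (SE 0.09, adjusted p = 0.00517). The caPI3K minus dnPI3K difference after MI had an adjusted p of 0.0504 without caPI3K MI replicate 2. Its change after MI passed in no genotype, the dnPI3K value being -0.26 (SE 0.09, adjusted p = 0.0645).

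Of the other spiral genes, *Hadh*, *Echs1* and *Acadvl*, for a hydroxyacyl-CoA dehydrogenase, an enoyl-CoA hydratase and the very-long-chain acyl-CoA dehydrogenase, fell in dnPI3K hearts by 0.50 to 0.51 log2 units, with adjusted p = 0.00344, 0.000603 and 0.00142. All 3 kept the call without any single array, but the mean over the probe sets of *Hadh* was -0.138 (adjusted p = 0.737). Of its other probe sets a dim one changed by 0.67 and a bright one by -0.57. *Acadvl* was also lower in dnPI3K MI than Ntg MI hearts by -0.41 (SE 0.10, adjusted p = 0.0176) and higher in caPI3K MI than dnPI3K MI hearts by 0.34 (SE 0.10, adjusted p = 0.0455). The first was lost without any of Ntg MI replicates 2, 3 and 4 and dnPI3K MI replicate 4 (adjusted p up to 0.0808), the second whichever of its 8 arrays was left out (up to 0.143). *Hadh* was higher in caPI3K MI than dnPI3K MI hearts by 0.41 (SE 0.11, adjusted p = 0.0311), lost without any of dnPI3K MI replicates 1, 2 and 4 and caPI3K MI replicates 1 and 2 (up to 0.149), and 0.049 (adjusted p = 0.941) with the mean of its probe sets. *Acadl*, the long-chain dehydrogenase, changed by -0.22 (SE 0.08, adjusted p = 0.0903) and did not pass.

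The 4 auxiliary enzymes for unsaturated chains fell together in dnPI3K hearts, and all 4 were lower in dnPI3K MI than Ntg MI hearts and higher in caPI3K MI than dnPI3K MI hearts. In each of these 3 comparisons the arrays of the groups did not overlap for any of the 4. *Ech1* (1448491_at), a dienoyl-CoA isomerase, had the smallest p of the list after MI in dnPI3K hearts. *Ech1* log2 levels on sham arrays were 15.28, 15.29, 14.92 and 14.72 in Ntg, 14.80, 14.59, 14.43 and 14.95 in dnPI3K and 14.95, 14.94, 14.88 and 15.00 in caPI3K hearts. *Ech1* log2 levels after MI were 14.32, 14.70, 14.62 and 14.61 in Ntg, 13.98, 13.89, 13.99 and 13.71 in dnPI3K and 14.51, 14.68, 14.48 and 14.46 in caPI3K hearts. dnPI3K MI arrays lay below every other array of the 24, and Ntg sham replicate 4 was the lowest Ntg sham array. *Ech1* fell by 0.80 (SE 0.11, adjusted p = 0.000121) log2 units in dnPI3K hearts, a signal that fell by 42.6%. In Ntg hearts it fell by 0.49 (SE 0.11, adjusted p = 0.0348), with an adjusted p of 0.0582 to 0.194 without any Ntg array other than sham replicate 4. The Ntg change was -0.259 (adjusted p = 0.89) without arrays 415 to 418 and -0.326 (adjusted p = 0.101) after quantile normalization. In caPI3K hearts *Ech1* changed by -0.41 (SE 0.11, adjusted p = 0.0762). The caPI3K change passed after quantile normalization (-0.423, adjusted p = 0.0164), in a fit of the caPI3K arrays alone (adjusted p = 0.0025) and without arrays 415 to 418 (adjusted p = 0.0392). *Ech1* was lower in dnPI3K MI than Ntg MI hearts by -0.67 (SE 0.11, adjusted p = 0.0013) and higher in caPI3K MI than dnPI3K MI hearts by 0.64 (SE 0.11, adjusted p = 0.00105).

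*Eci1* (1418321_at) is the mitochondrial enoyl-CoA isomerase. *Eci1* log2 levels on sham arrays were 14.37, 14.29, 13.99 and 13.56 in Ntg, 13.96, 13.71, 13.65 and 14.08 in dnPI3K and 13.91, 13.77, 13.80 and 13.96 in caPI3K hearts. *Eci1* log2 levels after MI were 13.47, 13.67, 13.76 and 13.58 in Ntg, 13.20, 13.06, 12.91 and 12.72 in dnPI3K and 13.32, 13.57, 13.59 and 13.53 in caPI3K hearts. dnPI3K MI arrays were again the lowest, and Ntg sham replicate 4 fell inside the Ntg MI range. *Eci1* fell by 0.88 (SE 0.13, adjusted p = 0.000155) log2 units in dnPI3K hearts, a signal that fell by 45.5%, beside -0.43 (SE 0.13, adjusted p = 0.132) in Ntg and -0.36 (SE 0.13, adjusted p = 0.219) in caPI3K hearts. Without Ntg sham replicate 4 the Ntg change was -0.60 (adjusted p = 0.00164). *Eci1* differed between dnPI3K and Ntg MI hearts by -0.65 (SE 0.13, adjusted p = 0.00513) and between caPI3K and dnPI3K MI hearts by 0.53 (SE 0.13, adjusted p = 0.0163), the latter lost without any of dnPI3K MI replicate 4 and caPI3K MI replicates 2 and 3 (adjusted p up to 0.066). Its caPI3K minus dnPI3K difference in sham hearts was 0.01 (SE 0.13, adjusted p = 0.977).

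*Decr1* (1419367_at) is the dienoyl-CoA reductase. *Decr1* log2 levels on sham arrays were 14.04, 14.00, 13.83 and 13.44 in Ntg, 13.66, 13.43, 13.38 and 13.77 in dnPI3K and 13.73, 13.65, 13.62 and 13.74 in caPI3K hearts. *Decr1* log2 levels after MI were 13.13, 13.46, 13.46 and 13.32 in Ntg, 12.96, 12.91, 12.83 and 12.57 in dnPI3K and 13.34, 13.47, 13.32 and 13.13 in caPI3K hearts. The dnPI3K MI arrays lay below all others, and Ntg sham replicate 4 lay within the Ntg MI range. *Decr1* fell by 0.74 (SE 0.11, adjusted p = 0.000209) log2 units in dnPI3K hearts and fell by 0.49 (SE 0.11, adjusted p = 0.0348) in Ntg hearts, beside -0.37 (SE 0.11, adjusted p = 0.116) in caPI3K hearts. The Ntg adjusted p was 0.0541 to 0.194 without any Ntg array other than sham replicate 4, and the change was -0.291 (adjusted p = 0.871) without arrays 415 to 418. *Decr1* differed between dnPI3K and Ntg MI hearts by -0.52 (SE 0.11, adjusted p = 0.00948) and between caPI3K and dnPI3K MI hearts by 0.49 (SE 0.11, adjusted p = 0.00988). *Eci2*, the second isomerase, fell by 0.43 (SE 0.09, adjusted p = 0.00345) in dnPI3K hearts, and differed by -0.42 (SE 0.09, adjusted p = 0.0094) and 0.35 (SE 0.09, adjusted p = 0.0242) in the same 2 comparisons, the last lost without any of dnPI3K MI replicates 1, 2 and 4 and caPI3K MI replicates 1, 2 and 3 (adjusted p up to 0.0809).

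**Figure D3:**
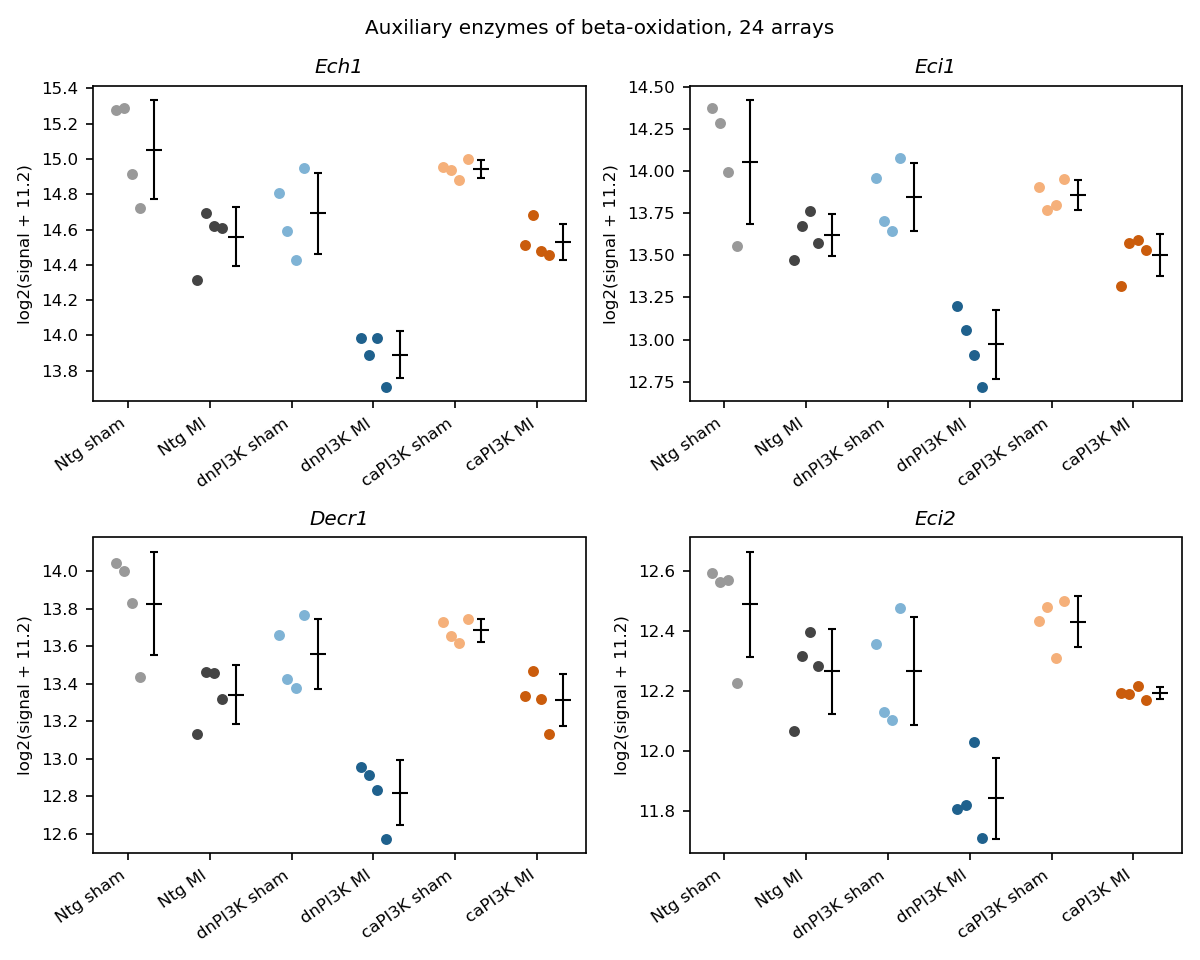
Log2(signal + 11.2) of the auxiliary enzymes *Ech1*, *Eci1*, *Decr1* and *Eci2* on each of 24 arrays (points), with group mean and SD (bars, n = 4). The 4 dnPI3K MI arrays lie below the arrays of every other group for all 4 genes, and caPI3K MI and Ntg MI arrays overlap.

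All 3 electron transfer genes fell in dnPI3K hearts. *Etfb* fell by 0.57 (SE 0.09, adjusted p = 0.000319) log2 units, *Etfdh*, which passes the electrons to ubiquinone, fell by 0.43 (SE 0.10, adjusted p = 0.0087) and *Etfa* fell by 0.35 (SE 0.09, adjusted p = 0.0119). The *Etfa* call was lost without dnPI3K sham replicate 1 or MI replicate 4 (adjusted p up to 0.0594), and after quantile normalization its change was -0.125 (adjusted p = 0.23). *Etfdh* was also lower in dnPI3K MI than Ntg MI hearts, by -0.40 (SE 0.10, adjusted p = 0.0356), and higher in caPI3K MI than dnPI3K MI hearts, by 0.44 (SE 0.10, adjusted p = 0.013). The first of these was lost without any of Ntg MI replicates 2, 3 and 4 and dnPI3K MI replicates 1 and 4 (up to 0.149), and the second without dnPI3K MI replicate 4 or caPI3K MI replicate 2 (up to 0.0548). Averaged with a dim second probe set, *Etfdh* changed by -0.615 (adjusted p = 0.262) in dnPI3K hearts and differed by -0.164 (adjusted p = 0.867) and 0.969 (adjusted p = 0.0808) in these 2 comparisons.

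Among the storage genes *Dgat2* alone fell. *Dgat2* (1422678_at) is an acyltransferase that completes triglyceride synthesis. *Dgat2* log2 levels on sham arrays were 12.16, 12.32, 12.43 and 11.37 in Ntg, 11.45, 11.34, 11.81 and 12.07 in dnPI3K and 11.71, 12.01, 11.57 and 11.80 in caPI3K hearts. *Dgat2* log2 levels after MI were 11.56, 11.56, 11.40 and 11.75 in Ntg, 11.07, 10.90, 10.92 and 10.94 in dnPI3K and 11.32, 11.60, 11.45 and 11.28 in caPI3K hearts. dnPI3K MI arrays lay below every other array of the 24, and Ntg sham replicate 4 was the lowest Ntg array. *Dgat2* fell by 0.71 (SE 0.16, adjusted p = 0.0056) log2 units in dnPI3K hearts, beside -0.50 (SE 0.16, adjusted p = 0.176) in Ntg and -0.36 (SE 0.16, adjusted p = 0.361) in caPI3K hearts. Without Ntg sham replicate 4 the Ntg change was -0.73 (adjusted p = 0.000893). Its dnPI3K minus Ntg difference after MI was -0.61 (SE 0.16, adjusted p = 0.0396), which lost its call whichever of the 8 arrays was left out (adjusted p up to 0.135).

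*Pnpla2* (1428143_a_at), the adipose triglyceride lipase that starts triglyceride breakdown, did not pass after MI in any genotype. *Pnpla2* log2 levels on sham arrays were 12.20, 12.20, 12.17 and 11.72 in Ntg, 12.04, 11.93, 11.91 and 12.23 in dnPI3K and 11.82, 11.71, 11.89 and 11.77 in caPI3K hearts. *Pnpla2* log2 levels after MI were 11.61, 11.95, 11.92 and 11.74 in Ntg, 11.76, 11.83, 11.93 and 11.46 in dnPI3K and 11.84, 11.66, 11.70 and 11.68 in caPI3K hearts. Sham and MI arrays overlapped in all 3 genotypes, and Ntg sham replicate 4 was low. *Pnpla2* changed by -0.27 (SE 0.11, adjusted p = 0.274), -0.28 (SE 0.11, adjusted p = 0.102) and -0.08 (SE 0.11, adjusted p = 0.856) in Ntg, dnPI3K and caPI3K hearts. Without Ntg sham replicate 4 the Ntg value was -0.385 (adjusted p = 0.0192), and the mean with a dim second probe set was 0.135 in dnPI3K hearts. *Lipe*, hormone-sensitive lipase, lay between 8.15 and 9.29 and *Dgat1*, the other acyltransferase, between 9.19 and 9.66, and neither passed in any comparison.

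*Ucp3* (1420657_at), a mitochondrial uncoupling protein whose level follows fatty acid supply, was dim and varied between arrays. *Ucp3* log2 levels on sham arrays were 8.49, 8.08, 9.11 and 8.88 in Ntg, 8.22, 8.72, 7.48 and 9.35 in dnPI3K and 9.16, 9.97, 9.21 and 10.13 in caPI3K hearts. *Ucp3* log2 levels after MI were 7.89, 9.13, 8.39 and 8.42 in Ntg, 7.85, 8.23, 8.27 and 7.34 in dnPI3K and 9.10, 8.83, 7.97 and 9.28 in caPI3K hearts. caPI3K sham arrays lay above all Ntg arrays, while dnPI3K sham replicate 4 and caPI3K MI replicate 4 fell within their range. *Ucp3* was higher in caPI3K than in dnPI3K sham hearts by 1.17 (SE 0.34, adjusted p = 0.0263), a call lost without any of dnPI3K sham replicates 1 and 3 and caPI3K sham replicates 2 and 4 (adjusted p up to 0.128) and with the term for array number (0.0723), and after MI the difference was 0.87 (SE 0.34, adjusted p = 0.173). Its changes after MI were -0.18 (SE 0.34, adjusted p = 0.9), -0.52 (SE 0.34, adjusted p = 0.409) and -0.82 (SE 0.34, adjusted p = 0.304) in Ntg, dnPI3K and caPI3K hearts. *Acat1*, mitochondrial acetoacetyl-CoA thiolase, fell by 0.44 (SE 0.08, adjusted p = 0.000747) in dnPI3K hearts. *Acat1* was lower in dnPI3K MI than Ntg MI hearts by -0.31 (SE 0.08, adjusted p = 0.0304) and higher in caPI3K MI than dnPI3K MI hearts by 0.34 (SE 0.08, adjusted p = 0.0108), lost without 6 of 8 single arrays (adjusted p up to 0.114) and without caPI3K MI replicate 2 (0.0556).

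Genotypes were then compared within each operation. In sham hearts 2 of 35 members were lower in dnPI3K than in Ntg hearts, where 0.704% of all genes were lower, namely *Slc25a20* and *Cpt2*, and 4 were lower without Ntg sham replicate 4. The median difference of the 35 was -0.189, beside -0.002 over all genes. Of the 35, 30 were below 0, beside 50.3% of all genes, and 13 had an unadjusted p below 0.05, all of them lower. Between caPI3K and Ntg sham hearts 0 of 35 passed, where 0.257% of all genes did (limma, 4 members with an unadjusted p below 0.05), and 3 passed without Ntg sham replicate 4. Between caPI3K and dnPI3K sham hearts 4 were higher in caPI3K, *Slc25a20*, *Cpt2*, *Acads* and *Ucp3*, and *Hsd17b10* was lower, beside 5.38% and 4.5% of all genes. Without the 3 caPI3K sham arrays with Y-linked signal the difference was 0.648 for *Cpt2*, 0.444 for *Acads*, 1.684 for *Ucp3* and -0.384 for *Hsd17b10*. These values rest on 1 caPI3K sham array. After quantile normalization 14 members passed, with no share of all genes given for that fit.

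After MI the dnPI3K hearts stood apart from both other genotypes. In dnPI3K MI hearts 14 of 35 were lower than in Ntg MI hearts and 0 higher, where 1.93% of all genes were lower. The median difference was -0.288, beside 0.014 over all genes, and 14 members had no overlap between the groups, with dnPI3K lower, beside 4.59% of all genes. In caPI3K MI hearts 13 of 35 were higher than in dnPI3K MI hearts and 0 lower, where 2.91% of all genes were higher. That median was 0.320, beside -0.005, and 16 members had no overlap, beside 5.68% of all genes. caPI3K MI and Ntg MI hearts differed in 0 of 35 members and 0 of 14763 genes, with 1 member and 682 genes at an unadjusted p below 0.05 in limma, and the median difference of the members was -0.015. The first and second of these comparisons share the dnPI3K MI arrays. The mean of dnPI3K MI was the lowest of the 6 group means for 27 of 35 members, beside 23.2% of all genes. Leaving out 1 array at a time, 7 of the 14 and 5 of the 13 calls held in every case, the first being *Ech1*, *Cpt2*, *Eci1*, *Acads*, *Slc25a20*, *Eci2* and *Decr1*, the second *Slc25a20*, *Cpt2*, *Ech1*, *Acaa2* and *Decr1*. The count of 14 was 7 or 8 without Ntg MI replicate 2, 3 or 4 or dnPI3K MI replicate 4, and the count of 13 was 7 without dnPI3K MI replicate 4 and 5 without caPI3K MI replicate 2. Of the 14, *Crat*, *Etfdh* and *Dgat2* did not pass with the term for array number (adjusted p = 0.0905, 0.0708 and 0.0856). In a fit of both groups alone *Slc25a20*, *Acads*, *Acadvl*, *Crat*, *Etfdh* and *Acat1* did not pass (0.0518 to 0.119), and without the intensity trend *Crat*, *Acadvl*, *Hadha*, *Acaa2*, *Etfdh*, *Dgat2* and *Acat1* did not (0.0548 to 0.11). Of the 13, *Acadvl*, *Acadm*, *Hadh*, *Eci1* and *Eci2* did not pass without the trend (0.0552 to 0.106).

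**Figure D4:**
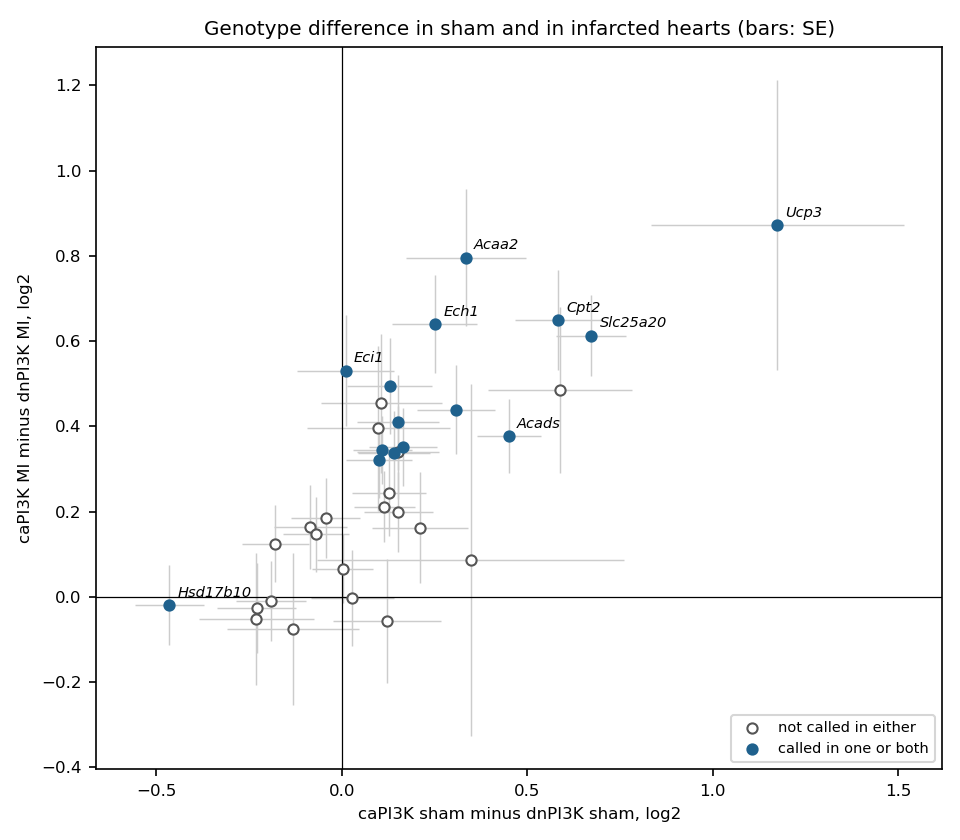
Log2 difference between caPI3K and dnPI3K hearts in sham (horizontal axis) and after MI (vertical axis) for the 35 genes, with standard errors as bars, drawn from arrays that the 2 axes do not share. *Slc25a20* and *Cpt2* are displaced on both axes, *Eci1* on the vertical axis alone, and *Hsd17b10* on the horizontal axis alone.

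The caPI3K minus dnPI3K difference could be set side by side in sham and MI hearts because no array is shared. Of 35 members 29 had the same sign in both, 24 of them higher in caPI3K hearts, beside 60.2% and 29.7% of all genes. For *Slc25a20* the sham and MI differences were 0.67 and 0.61, and for *Eci1* they were 0.01 and 0.53.

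Whether the change after MI itself differed between genotypes was tested directly, and no member passed. In limma 0 of 35 members and 0 of 14763 genes (0%) were called for dnPI3K against Ntg, caPI3K against Ntg and caPI3K against dnPI3K, with 2, 0 and 6 members and 1122, 815 and 1504 genes at an unadjusted p below 0.05. For dnPI3K against Ntg the members of smallest p were *Hsd17b10*, with a difference of changes of -0.36 (interval -0.63 to -0.09, adjusted p = 0.606), *Eci1* with -0.45 (interval -0.82 to -0.07, adjusted p = 0.633) and *Etfb* with -0.27 (interval -0.54 to 0.0004, adjusted p = 0.653). Those for caPI3K against dnPI3K were *Hsd17b10* with 0.45 (interval 0.17 to 0.72, adjusted p = 0.203), *Eci1* with 0.52 (interval 0.14 to 0.90, adjusted p = 0.307) and *Ech1* with 0.39 (interval 0.05 to 0.72, adjusted p = 0.403). Those for caPI3K against Ntg were *Etfa* with 0.22 (interval -0.04 to 0.47, adjusted p = 0.911), *Acads* with -0.21 (interval -0.47 to 0.04, adjusted p = 0.911) and *Acadm* with 0.19 (interval -0.07 to 0.45, adjusted p = 0.927). The larger number of calls in dnPI3K hearts is therefore a count past a threshold and not a shown difference of the changes.

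Other genes of the pathway were followed from a wider list. Of 35 further genes for uptake, activation, shuttle and oxidation, 0 passed after MI in Ntg and caPI3K hearts. In dnPI3K hearts 11 fell and 1 rose, beside 5.19% and 4.23% of all genes. Those of smallest p were enzymes of propionate and branched-chain acyl-CoA breakdown: *Mcee* fell by 0.63 (SE 0.10), *Acadsb* by 0.47 (SE 0.09) and *Pcca* by 0.52 (SE 0.10). The gene that rose was *Acsl5*, an acyl-CoA synthetase, and *Fabp4*, an adipocyte marker as well, is among the 11. Genotype differences were found here too: *Acsl6*, another acyl-CoA synthetase, was higher in caPI3K than in dnPI3K hearts by 1.60 (SE 0.19) in sham and 1.31 (SE 0.19) after MI. *Dbi*, the acyl-CoA binding protein, was higher by 0.44 (SE 0.07) and 0.55 (SE 0.07), and *Acad11*, an acyl-CoA dehydrogenase, by 0.62 (SE 0.11) and 0.64 (SE 0.11). In all 5 of 35 were higher and 3 lower in caPI3K than dnPI3K sham hearts, beside 5.38% and 4.5% of all genes. After MI 9 were higher, beside 2.91% of all genes, and 0 lower. *Acsl6* and *Dbi* were also lower in dnPI3K than in Ntg sham hearts, by -1.13 (SE 0.19) and -0.34 (SE 0.07).

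Of 18 further genes for triglyceride storage and ketone bodies, 3 fell after MI in dnPI3K hearts, where 5.19% of all genes fell. *Plin3*, a lipid droplet coat protein, fell by 0.36 (SE 0.10). *Lpin1*, a phosphatidate phosphatase, fell by 0.37 (SE 0.11) and *G0s2*, an inhibitor of adipose triglyceride lipase, by 0.59 (SE 0.185). In sham hearts 5 of the 18 were higher and 2 lower in caPI3K than in dnPI3K, beside 5.38% and 4.5% of all genes. *Gpam*, the first acyltransferase of triglyceride synthesis, was higher by 0.87 (SE 0.16), *Cidea* by 0.54 (SE 0.10) and *Lpin1* by 0.48 (SE 0.11). After MI 3 of the 18 were higher in caPI3K than in dnPI3K, beside 2.91% of all genes. *Lpin1* was higher by 0.67 (SE 0.11), *Plin5*, a droplet protein of oxidative tissue, by 0.55 (SE 0.15) and *Gpam* by 0.57 (SE 0.16).

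Of 14 regulators of the pathway, 3 fell after MI in dnPI3K hearts, where 5.19% of all genes fell. *Ppara*, the nuclear receptor that drives fatty acid oxidation genes, fell by 0.59 (SE 0.14). Its coactivator *Ppargc1a* fell by 0.64 (SE 0.19) and the transcription factor *Klf15* by 0.58 (SE 0.18). In caPI3K hearts *Ppargc1b* fell by 0.41 (SE 0.10), and in Ntg hearts 0 of 14 passed. *Ppargc1a* was lower in caPI3K than in dnPI3K sham hearts, by -1.12 (SE 0.19), while *Ppargc1b* was higher by 0.34 (SE 0.10), as was *Prkaa2*, a catalytic subunit of AMP-activated kinase, by 0.34 (SE 0.08). Of 17 citric acid cycle genes 14 fell after MI in dnPI3K hearts, beside 5.19% of all genes. The median of the 17 was -0.333 there, beside -0.230 in Ntg and -0.200 in caPI3K hearts, where 0 passed. *Suclg2*, a subunit of succinyl-CoA ligase, fell by 0.54 (SE 0.09), *Suclg1* by 0.37 (SE 0.07) and *Idh2*, an isocitrate dehydrogenase, by 0.71 (SE 0.14). In dnPI3K MI hearts 2 of 17 were lower than in Ntg MI hearts, *Suclg2* and *Suclg1*, beside 1.93% of all genes.

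Markers of heart cell types moved with some of these comparisons. The 8 cardiomyocyte markers had medians of -0.217, -0.212 and -0.086 after MI in Ntg, dnPI3K and caPI3K hearts, and *Tnni3*, cardiac troponin I, fell by 0.35 (SE 0.09) in dnPI3K hearts, the single call. Between dnPI3K and Ntg MI hearts their median difference was -0.024, between caPI3K and dnPI3K MI hearts -0.020, and 0 of 8 passed in either. Their summed signal was 326490 to 356460 in Ntg MI, 320260 to 355740 in dnPI3K MI and 307720 to 361890 in caPI3K MI hearts, against 343900 to 455950, 352340 to 458090 and 345570 to 367940 in the sham groups in the same order. The 35 fatty acid genes summed to 402050 to 472690, 349230 to 408560 and 420910 to 483900 after MI, and to 490420 to 633520, 444280 to 553390 and 505970 to 534090 in sham hearts. The cardiomyocyte sums of the 3 MI groups overlapped. The fatty acid sums of dnPI3K MI lay below those of caPI3K MI and reached into the lower end of Ntg MI. *Myh6*, *Tnni3*, *Tnnt2*, *Actc1*, *Mb* and *Myl2* read 34169 to 77857, above the 99th percentile of every array (16086 to 20892). The part of the scaling of bright probe sets in these sums was not tested.

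Of 8 fibroblast markers 3, 4 and 2 rose after MI in Ntg, dnPI3K and caPI3K hearts, where 0.684%, 4.23% and 0.853% of all genes rose, among them *Postn*, periostin of the injured heart's matrix, by 1.77 (SE 0.31), 1.80 (SE 0.31) and 1.66 (SE 0.31). Their summed signal was 55902 to 101510 in Ntg sham and 88586 to 105000 in Ntg MI, 72408 to 84277 and 100140 to 122050 in dnPI3K, and 63547 to 73303 and 90896 to 101970 in caPI3K hearts. Of 6 adipocyte markers measured, 3 fell after MI in dnPI3K hearts, beside 5.19% of all genes. *Adipoq* fell by 1.29 (SE 0.32), *Car3* by 1.36 (SE 0.39) and *Fabp4* by 0.24 (SE 0.07). *Adipoq*, *Car3* and *Retn* were lower in caPI3K than in dnPI3K sham hearts, by -1.60, -1.33 and -1.09, where 4.5% of all genes were lower. *Tcf21*, a fibroblast transcription factor, was higher in dnPI3K MI than Ntg MI hearts by 0.60 and lower in caPI3K MI than dnPI3K MI hearts by -0.45. *Cidec* and *Pck1* were above the 40th percentile on 14 and 15 of 24 arrays. The adipocyte sum was 43855 to 53549 in dnPI3K sham, 36775 to 42592 in dnPI3K MI and 39640 to 41655 in caPI3K sham hearts. Most of that sum is *Fabp4*, at 32715 to 46473 over the arrays, beside 596.33 to 6971.3 for *Car3* and 141.86 to 1112.5 for *Adipoq*. The adipocyte list median per array, relative to the mean of all arrays, overlapped between these groups. It was 0.154 to 0.67 in dnPI3K sham, -1.007 to 0.819 in dnPI3K MI and -0.946 to 0.037 in caPI3K sham hearts. Of 8 endothelial markers only *Emcn* passed, higher in dnPI3K MI than Ntg MI hearts by 0.34 (SE 0.09), and of 8 macrophage markers 0 passed in any of the 12 comparisons (limma). The endothelial sum was 14244 to 15383 in dnPI3K sham and 14809 to 17402 in dnPI3K MI hearts, and the macrophage sum 20937 to 34420 and 26916 to 37180. The part of the cardiomyocyte, fibroblast, adipocyte, endothelial and macrophage signals in the fatty acid gene values was not tested.

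**Figure D5:**
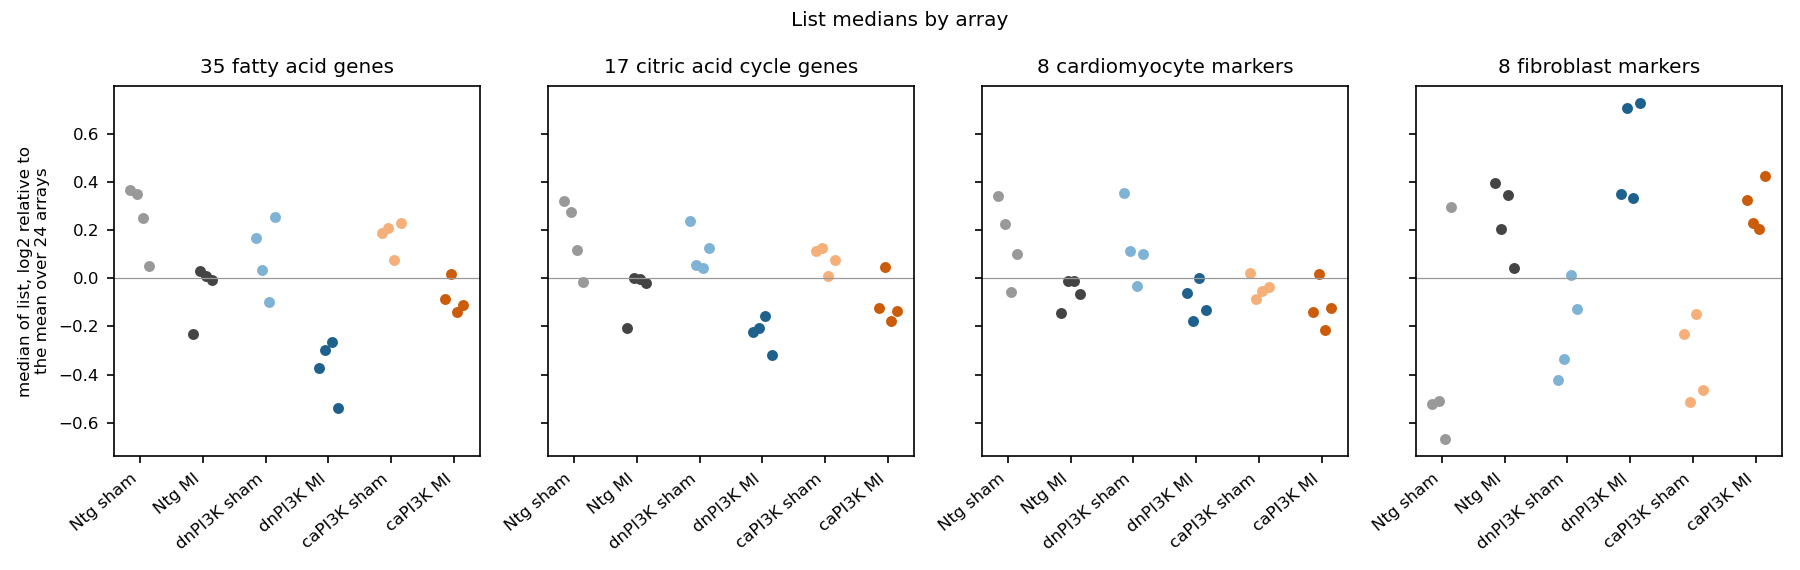
Median over each list of the log2 level relative to the mean of 24 arrays (vertical axis), 1 point per array, for the 35 fatty acid genes, 17 citric acid cycle genes, 8 cardiomyocyte markers and 8 fibroblast markers. The fatty acid medians of dnPI3K MI arrays lie between -0.538 and -0.263, below all other arrays, while cardiomyocyte medians of the 3 MI groups overlap.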

How the data were processed

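Gene expression was measured in 24 whole-heart RNA samples on Affymetrix mouse arrays, 4 in each of 6 groups, grouped by their titles. The authors deposited 1 MAS5 signal intensity per probe set and array, per the submitters' processing notes, and the values have a trimmed mean of 500.003 to 500.004 on each array (2% trimmed at each end). No version of MAS5 and no scaling target is named in the notes. Of 45101 probe sets, 34945 name 1 gene in the platform annotation, 932 several and 9160 none, beside 64 controls, and 34741 matched a RefSeq gene. Probe sets above the 40th percentile of their own array on at least 4 arrays were kept (33061), and each gene was read by its kept probe set of highest mean log2 value. Signals were taken as log2(signal + 11.2), where 11.2 is 0.1 of the median signal.

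Group means were fitted with limma 3.58.1 in R 4.3.3 (lmFit, contrasts.fit, eBayes with an intensity trend, 18 residual degrees of freedom), with Benjamini-Hochberg adjustment over 14763 genes and a threshold of 0.05. The fit was tested on simulated data in which every gene and array varied independently. Such data cannot show the error rate where genes or whole arrays move together. Other tools were data.table (version 1.17.8), jsonlite 2.0.0, Python 3.11.15, pandas 2.3.3 and matplotlib 3.10.9. The number of arrays limits the precision. The members and the lists were chosen with earlier results of these data known. Values on every array are given for members called (the 5 of smallest p per direction and comparison) and for 14 listed genes, called or not: *Cd36*, *Fabp3*, *Lpl*, *Cpt2*, *Acadm*, *Hadha*, *Ech1*, *Eci1*, *Decr1*, *Ucp3*, *Acacb*, *Dgat2*, *Pnpla2* and *Acsl1*, the last of which was not measured and has no values. Of other genes the 3 of smallest p per direction are named. Alternatives were other pseudocounts, no filter, quantile normalization, the mean of a gene's probe sets, no trend, separate fits, a term for array number, and arrays left out.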

Additional observations from a re-analysis of the deposited data

Results flagged for a closer look

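In 10 of 210 sets of 4 arrays of 1 group, the highest or the lowest array lay apart from the other three by a gap above Dixon's critical share of the whole range for 4 values, which chance gives in about 1 in 20 sets, and in all 10 it was the lowest. Ntg sham replicate 4 was low in 3 of them, with log2 levels of 12.66 for *Hsd17b10* (others 13.03 to 13.10), 12.23 for *Eci2* (others 12.57 to 12.60) and 11.72 for *Pnpla2* (others 12.17 to 12.20). Ntg MI replicate 1 was low in 4, at 15.6 for *Fabp3*, 13.63 for *Acadvl*, 14.81 for *Acadm* and 12.76 for *Acaa2*. dnPI3K MI replicate 4 was low in 2, at 11.73 for *Acaa2* (others 12.44 to 12.46) and 13.73 for *Etfb* (others 13.96 to 13.99). caPI3K MI replicate 3 was low for *Lpl*, at 15.26 (others 15.55 to 15.61). Ntg sham replicate 4 is also the sham array with the high fibroblast marker median given above. The part of that signal in the low values was not tested.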

How the results depend on the processing

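The median change of the members kept its sign after MI in each genotype under all alternatives run, from -0.383 to -0.162 in Ntg, -0.524 to -0.355 in dnPI3K and -0.333 to -0.264 in caPI3K hearts, while counts of calls moved. Members called after MI in Ntg hearts were 0 with the mean of probe sets, without the intensity trend, in a fit of its groups alone, without the sham arrays numbered 415 to 418 and without the caPI3K sham arrays with Y-linked signal, and 1 with quantile normalization or when a term split array numbers at 1000. That term gave 23 calls after MI in dnPI3K hearts, 4 between caPI3K and dnPI3K sham hearts and 13 between dnPI3K and Ntg MI hearts. Those in caPI3K hearts were 1 with a pseudocount of the median signal, 2 with quantile normalization, 14 in a fit of its groups alone and 2 without arrays 415 to 418. Between dnPI3K and Ntg sham hearts the calls were 5 with quantile normalization, 1 with the mean of probe sets, without the trend and without the Y-linked arrays, and 0 in a fit of its groups alone and without arrays 415 to 418. Between caPI3K and dnPI3K sham hearts they were 14 with quantile normalization, 3 without arrays 415 to 418 and 1 without the Y-linked arrays. Between dnPI3K and Ntg MI hearts they were 7 without the trend and 9 in a fit of its groups alone, and between caPI3K and dnPI3K MI hearts 8 without the trend. Leaving out 1 array at a time gave 0 to 19 calls after MI in Ntg, 17 to 23 in dnPI3K and 0 to 1 in caPI3K hearts, 1 to 4 for dnPI3K against Ntg sham, 0 to 3 for caPI3K against Ntg sham, 4 to 7 for caPI3K against dnPI3K sham, 7 to 14 for dnPI3K against Ntg MI and 5 to 12 for caPI3K against dnPI3K MI hearts. Signs turned for *Fabp3* (0.002 in Ntg and 0.030 in dnPI3K) and *Cd36* (0.004 in dnPI3K) with quantile normalization, *Pnpla2* (0.135 in dnPI3K) and *Cpt2* (0.044, dnPI3K against Ntg MI) with the mean of probe sets, *Ucp3* in Ntg hearts without MI replicate 1 (0.008, range -0.404 to 0.008 over single arrays left out) and *Lpl* in caPI3K hearts without MI replicate 3 (0.029, range -0.089 to 0.029). Fits that leave out arrays or groups rest on fewer samples, and for the rest the cause was not tested. Shares of all genes called are not given for the alternative fits. No paired analysis was possible because replicate numbers were given in accession order and tie no arrays together, and the array numbers in the titles are not shared between groups. A caPI3K sham group without its Y-linked arrays holds 1 array, assumed to vary like the other groups. Dim genes such as *Ucp3* and *Acot1* carry the widest errors.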
